A study of Mus musculus with 8 samples.

Results

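The 4 placebo arrays of this 8-array series describe subcutaneous fat of diabetic male mice that received water. They were chosen as every sample whose title ends in PBO or pbo. In the series, each mouse had 1 Affymetrix Mouse Genome 430 2.0 array, and the supplemented mice are not described here. The placebo mice, numbered 6, 8, 10 and 14, had a labelled age of 8 weeks and were gavaged with water on 5 days per week for 10 weeks. A mouse gavaged for 10 weeks is older than 8 weeks at harvest, so that age cannot be the age at harvest. The age at harvest is not given in the sources used here. RNA came from whole tissue, so a level reflects every cell type of the depot, and fewer cells of a type and less RNA per cell cannot be told apart. The diabetic state is stated only in the series title, and no source used here gives the strain or the origin of the diabetes. Beyond these labels the mice carry only a number, and the 4 arrays limit the precision of every value.

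Subcutaneous fat is mostly triglyceride stored in white adipocytes, which take up fatty acids, make them from glucose, and release them between meals. Adipocytes also secrete hormones such as leptin and adiponectin. The cells between them, fibroblasts, vessel cells, macrophages and lymphocytes, hold a large share of the nuclei of the depot.

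A signal here is the linear MAS5 value of a probe set, the group of short probes that reads a transcript. Each gene was represented by its probe set of highest mean, which gave 18193 genes. Probes bind with different strength, so an order by signal describes the array and not copies per cell. Over genes, the mean of the 4 mice ran from 5.15 to 145073, with a median of 760.5. The arrays were alike in rank, with Spearman correlations across genes of 0.956 to 0.965 between pairs, where genes are not independent replicates. The Gapdh control probe sets had a 3' to 5' ratio of 0.924 to 1.04 and the beta-actin control probe sets 1.51 to 1.74.

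The labelled tissue was checked against adipocyte markers. Adiponectin (Adipoq), a hormone made by adipocytes, had signals of 108996, 94549, 104606 and 85821 in mice 6, 8, 10 and 14, the order in which the values of the 4 mice are given throughout. Leptin (Lep), which reports fat stores to the brain, had 95189.6, 85835, 91532 and 79034. Cidec, which joins lipid droplets, had 65804, 63073, 66455 and 59012. All of these lay in the highest signal class in every mouse, as did the mean signals of Fabp4 (133954), Retn (60354) and Lipe (39428). No single-gene probe set of the annotation used names Plin1 or Cfd, which were not analysed here.

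Genes were put into 6 classes by mean signal, with limits at 300, 1000, 3000, 10000 and 30000. The top class held 311 genes, 1.71% of all, and 26.7% of the summed signal. A further 1059 genes between 10000 and 30000 held 29.4%, and 3085 genes between 3000 and 10000 held 27.4%. The 3845 genes between 1000 and 3000 held 11.8%, and the 3338 genes between 300 and 1000 held 3.22%. The largest class, of 6555 genes below 300, held 36.0% of genes and 1.41% of the summed signal. The brightest 10 genes held 2.01% of the summed signal, the brightest 100 held 12.8% and the brightest 1000 held 49.1%. A total of 1043 genes held 50% of it and 6045 held 90%. With the mean of all probe sets of a gene in place of the brightest, 882 genes reached 10000, against 1370 here.

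**Figure D1:**
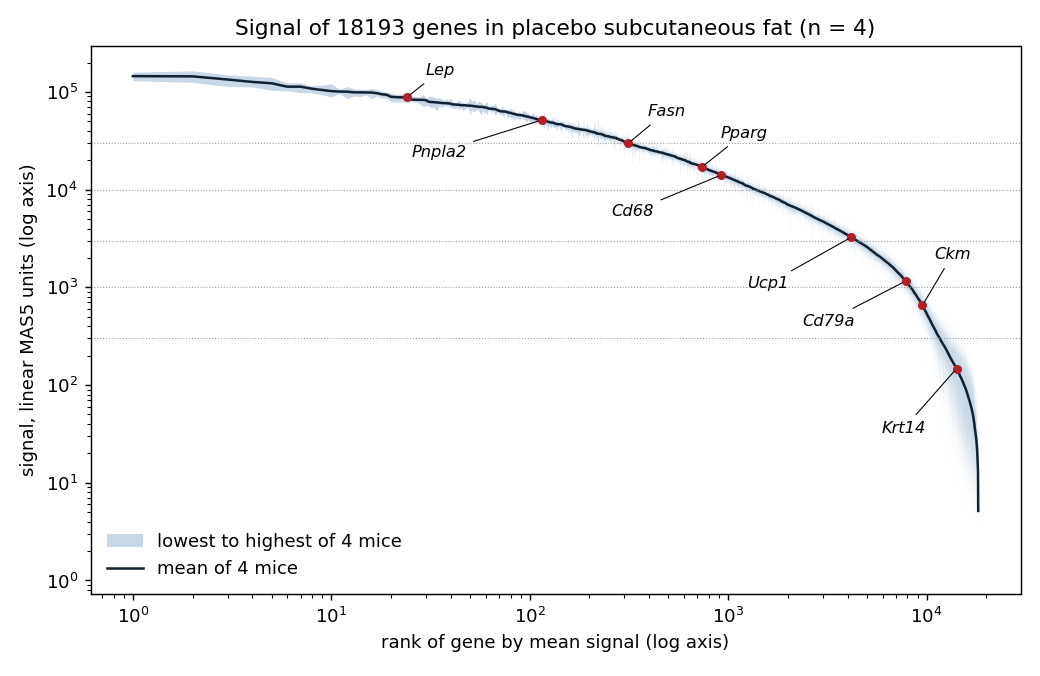
Signal of each gene (linear MAS5 units, log axis) against its rank (log axis), as the mean of 4 placebo mice (line) with the lowest to highest mouse (band); dotted lines mark the class limits and red points mark named genes. The curve falls from 145073 at rank 1 to 5.15 at rank 18193, and the band widens below a signal of 300.

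The brightest gene was Car3, carbonic anhydrase 3, an abundant cytosolic enzyme of adipocytes and muscle. Its signals were 153144, 130251, 158978 and 137918. Its second probe set gave 72155, 80538, 91708 and 79523, and both put mouse 10 highest. Lgals1, a sugar-binding lectin, followed at 144289 ± 16629 (mean ± SD, n = 4, as in all values given with ± here).

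Among the brightest 25 were genes that carry fatty acids into and through the adipocyte. The intracellular carrier Fabp4 stood at rank 3, with 149546, 127969, 144594 and 113707. The stearoyl-CoA desaturase Scd1, which makes monounsaturated fatty acids, stood at rank 5, with 140566, 118459, 127443 and 103727. In these probe sets mouse 6 was highest and mouse 14 lowest for both genes. The dimmer second probe set of Scd1 had 18739, 19566, 16714 and 20043, highest in mouse 14 and lowest in mouse 10. A dimmer probe set of Fabp4 had 12389, 10686, 12937 and 13244, also highest in mouse 14. The remaining probe sets of Fabp4 were highest in mouse 6 and lowest in mouse 14, as its brightest was. The acyl-CoA binding protein Dbi had a mean of 113191 ± 9205. Lipoprotein lipase (Lpl), which frees fatty acids from circulating lipoproteins, had 101912 ± 15122, the widest spread of the 25 (CV, the SD as a percent of the mean, 14.8%). Caveolin (Cav1), the coat protein of the pits that crowd the adipocyte surface, had 100555 ± 11716, and the fatty acid transporter Cd36 had 93606 ± 5228.

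Others of the 25 are housekeeping or structural genes. Ribosomal Rps29 and Rpl41, the translation factor Eef1a1 and Tpt1 had means between 96952 and 107717. The cytoskeletal genes Gsn, Vim, Tmsb4x and Tmsb10 had means of 126499, 98860.5, 98526 and 83982. Sparc, a matrix glycoprotein, stood at rank 7 (113176 ± 11964). The iron store subunit Fth1 had the narrowest spread of the 25, with 106686, 101543, 98179 and 96768 (CV 4.37%). Its second probe set, with a mean of 81389.5, had a CV of 9.47%. Haptoglobin (Hp), a plasma protein that binds free haemoglobin, had 88028 ± 9089.9. Akr1a1, Uqcrb, B2m and Itm2b completed the 25 at 94566, 89104, 88539 and 88053.

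The brightest genes shared an offset between mice. Of the brightest 100 genes, 74 were highest in mouse 6 and 70 were lowest in mouse 14. Their median offset from the mean of the 4 mice was 7.85% in mouse 6 and -7.70% in mouse 14. After quantile normalization of the arrays, 23 were highest in mouse 6 and 29 lowest in mouse 14, with offsets of -0.28% and -1.32%. The order of the mice among the brightest genes therefore changed with the scaling, and orders of mouse 6 against mouse 14 there are given as deposited.

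Promoters of genes with contrasting levels and spread are printed from RefSeq (build GRCm38.p6), 250 bases before to 50 after the start, with each CG pair in capitals. Adipoq (chr16:23146286-23146585, plus strand) and Lep (chr6:29059971-29060270, plus strand) are bright adipocyte hormones, Rpl41 (chr10:128549119-128549418, minus strand) is a bright gene used by every cell, and Cyp2e1 (chr7:140763569-140763868, plus strand) is one of the most variable genes described below.
Adipoq: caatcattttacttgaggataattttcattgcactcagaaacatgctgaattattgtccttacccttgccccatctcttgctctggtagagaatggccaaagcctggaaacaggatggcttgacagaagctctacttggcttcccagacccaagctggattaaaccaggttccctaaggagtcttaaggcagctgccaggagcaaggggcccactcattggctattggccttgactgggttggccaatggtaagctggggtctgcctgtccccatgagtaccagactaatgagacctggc
Lep: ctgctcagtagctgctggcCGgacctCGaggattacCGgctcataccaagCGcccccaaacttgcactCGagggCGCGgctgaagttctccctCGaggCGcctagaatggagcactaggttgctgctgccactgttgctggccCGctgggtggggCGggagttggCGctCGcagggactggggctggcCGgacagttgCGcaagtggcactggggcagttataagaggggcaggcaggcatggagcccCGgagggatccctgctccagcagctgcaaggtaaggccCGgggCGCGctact
Rpl41: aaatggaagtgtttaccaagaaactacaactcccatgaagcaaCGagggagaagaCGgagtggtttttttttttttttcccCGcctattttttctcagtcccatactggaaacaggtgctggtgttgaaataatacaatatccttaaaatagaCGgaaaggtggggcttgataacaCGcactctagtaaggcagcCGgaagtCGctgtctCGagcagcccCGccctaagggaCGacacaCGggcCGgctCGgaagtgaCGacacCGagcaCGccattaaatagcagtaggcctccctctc
Cyp2e1: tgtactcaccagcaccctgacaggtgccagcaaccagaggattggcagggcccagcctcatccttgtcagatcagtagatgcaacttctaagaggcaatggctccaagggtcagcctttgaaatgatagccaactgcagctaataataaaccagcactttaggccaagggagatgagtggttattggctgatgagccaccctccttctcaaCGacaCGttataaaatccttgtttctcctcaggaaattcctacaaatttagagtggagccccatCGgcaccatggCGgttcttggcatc
Adipoq had 0 CG pairs in this window, Cyp2e1 had 4, Rpl41 16 and Lep 19. Both hormones are bright, and they stand at opposite ends of this count.

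RefSeq promoters were matched for 14452 of the 18193 genes, 18109 promoters in all, since some genes have several. The median number of CG pairs was 21, 21, 22 and 21 in the 4 classes from the brightest down to 1000, then 16 between 300 and 1000 and 7 below 300. Over all promoters it was 16. Promoters with 5 or fewer CG pairs made up 43.9% of those of genes below 300 and 11.0% of those of genes at 1000 or more, against 23.5% of all. Genes of the ribosomal protein list had a median of 23, and those of the macrophage list 4. Genes at 1000 or more whose highest mouse was at least 2 times the lowest had a median of 11, against 21 for all genes at 1000 or more.

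The letters TATAAA, searched on the strand of the gene with a first base 40 to 20 bases before the start, occurred in 2.72% of promoters in the top class. The share was 1.88%, 0.887% and 0.84% in the next 3 classes, 1.72% between 300 and 1000 and 4.28% below 300, against 2.25% of all promoters. In the Cyp2e1 promoter printed above they start 31 bases before the start. A match is a description of the letters and not of a bound factor.

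The lipid droplet list, of coat proteins and lipases, had a median signal of 23981 over 16 measured members, against 760.5 over all genes. Of these, 10 reached 10000. The monoglyceride lipase Mgll (78568 ± 7998) and the coat proteins Plin4 (66749.5 ± 5787) and Plin2 (59902 ± 6743) led it with Cidec. The lipases Pnpla2, which starts lipolysis, and Lipe had 51613 ± 3968 and 39428 ± 2744. The brake of Pnpla2, G0s2, had 21545 ± 2199, and the coactivator of Pnpla2, Abhd5, had 9704 ± 468. Plin5, a coat protein of oxidative tissues, had 3406 ± 568. Fitm1, known from muscle, was the dimmest member at 169.5, 613, 112 and 82.2, with mouse 8 apart from the others.

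Fatty acid uptake and binding genes had a median of 43663 over 14 members. Beyond those among the brightest 25, Fabp5 had 77694 ± 6957 and Gpihbp1, which holds lipoprotein lipase on capillary walls, 18293 ± 2131.

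The list of fatty acid synthesis and triglyceride assembly had a median of 15957 over 22 members, and 15 reached 10000. Fatty acid synthase (Fasn) had signals of 30136, 21668, 44845 and 22262. Acetyl-CoA carboxylase (Acaca), which makes its substrate, had 6397, 5623, 11133 and 5368. Mouse 10 was highest for both and stood above the other mice, which lay within 21668 to 30136 for Fasn. The elongase Elovl6 had 2762, 1506, 3404 and 1859, and Thrsp, a regulator of lipogenesis, had 36159.8, 31414, 48237 and 29469.5. Gpam, which starts triglyceride assembly, had 9361, 9417, 14597 and 9486, where the other mice lay close together. Its second probe set, with a mean of 837, had 929, 961, 750 and 710, so mouse 10 was not highest there. Dgat2, which adds the last acyl chain, had 70369.5 ± 8228 and Acly 20642 ± 2583. Pck1, which supplies glycerol phosphate from lactate and amino acids, ran the other way, with 17035, 22169.9, 11553 and 16686, lowest in mouse 10. Mogat1 was dim, at 468 ± 149.

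Adipokines and other secreted adipocyte proteins had a median of 6912 over 18 members. Resistin (Retn) had 65357, 55672, 64528 and 55858. The Wnt inhibitor Sfrp5 had 30012 ± 2587 and chemerin (Rarres2) 29087 ± 2353. Retinol-binding protein Rbp4 had 14184, 12509.9, 22006 and 13170.2, with mouse 10 highest. Apelin (Apln) had 877, 1038, 1971 and 1101 and angiotensinogen (Agt) 564, 683, 1369 and 1210.1, both highest in mouse 10. Fgf21 was among the dim genes, at 63.4 ± 26.3.

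Adipocyte transcription factors had a list median of 3242 over 24 members. Cebpa had 39954 ± 2434, Pparg 16962 ± 1974 and Cebpb 14474 ± 1255; these drive adipocyte differentiation. Pparg had 14937, 17526, 15931 and 19454, highest in mouse 14. Klf15 had 2503, 2354, 4499 and 3159, highest in mouse 10. Among depot markers, Hoxc8, a gene of posterior body position, had 12238 ± 992, and Tcf21, a marker of visceral fat, had 281 ± 46.0. The imprinted genes Nnat and Mest had 68381, 66668, 67568 and 67596 and 44605, 47163, 42518 and 42692, with all 4 mice close for Nnat (CV 1.04%).

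The brown and beige adipocyte list had a median of 738 over 20 members, near that of all genes. Of its members 0 reached 10000, where 7.53% of all genes did, so 0 of 20 is near that share. Ucp1, which lets brown adipocyte mitochondria make heat, had 3819, 3754, 1408 and 4060.5. Mouse 10 lay apart below the others. Cox8b (4526, 3688, 2804 and 3606), Cidea (2099, 1722, 1188 and 1673) and Elovl3 (758, 945, 469.7 and 734) were also lowest in mouse 10. Over the 14 members at 300 or more, mouse 10 was lowest in 8 and highest in 3, which were Ppargc1b (1312, 1156, 1674 and 1579.9), Slc36a2 (3198, 2877, 3768 and 2054) and Letmd1 (1957, 1930.5, 2501 and 2309.7). The second probe set of Letmd1, nearly as bright, had 2432, 2177, 1845 and 2047, lowest in mouse 10. Prdm16 had 861 ± 146 and Dio2 243 ± 85.8.

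Insulin signalling and glucose uptake genes had a median of 5012 over 21 members. Pde3b, through which insulin restrains lipolysis, had 29679 ± 4371. The insulin receptor Insr had 3738 ± 217 and its substrate Irs1 3456 ± 396, while Irs2 had 378 ± 212. Akt2 had 8461 ± 984. The insulin-driven glucose transporter Slc2a4 had 6197, 5624, 8465 and 5167, highest in mouse 10, and Slc2a1 3275 ± 281. The niacin receptor and NAD list had a median of 678 over 17 members. Nnmt, which methylates nicotinamide, was its brightest member, with 31889.5, 32022, 43143 and 33436. Nampt, which recycles nicotinamide, had 5721 ± 131 and Nadk 10909 ± 307. The niacin receptor Hcar2 had 429, 901, 242 and 611 and the lactate receptor Hcar1 681, 894, 286 and 703, both lowest in mouse 10.

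Mitochondrial lists were bright. Respiratory chain and ATP synthase genes had a median of 27276 and a median CV of 5.37% over 27 members, and 25 reached 10000. The citrate cycle had a median of 16614 and a median CV of 5.25%, and fatty acid oxidation 13328 and 6.12%. The median CV was 7.66% over all genes at 10000 or more and 10.3% over all genes at 1000 or more. Atp5b had 54828 ± 2943, Mdh2 46753 ± 3000.4, Hadh 69347 ± 6887 and Acadm 46555 ± 2425. Pdk4, which turns off pyruvate oxidation in fasting, was wider, with 9885, 12703, 5273 and 9378.

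Cytosolic ribosomal proteins had the highest list median, 51012, over 45 of the 80 listed genes. Of these, 36 reached 10000. Rplp2 had 83155 ± 4899. Rps16 and Rpl12 were read at 43.4 ± 37.5 and 433 ± 127 by the only single-gene probe set of each, so each rank rests on 1 probe set. Translation factors had a median of 31112, with Eef2 at 37261 ± 1132.

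Collagens and other matrix genes had a median of 14072 over 34 members, and 21 reached 10000. Col3a1, a fibrillar collagen, had 85610.4, 84376, 86496 and 72620.3, and Col4a1, a basement membrane collagen, had 75309, 67227, 88272 and 58693. Mouse 14 was lowest for both. Dcn had 44144 ± 4146 and Col1a1 22474 ± 1641. The fibroblast and preadipocyte list had a median of 2164. Pdgfra, a receptor of adipocyte progenitors, had 3866 ± 375, Pi16 1602, 2392, 1084 and 2218 and Dlk1 201 ± 99.9.

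Blood endothelium markers had a median of 2174 over 16 members. Cldn5 had 8675 ± 919, Cdh5 4956 ± 657, Pecam1 3359 ± 525 and Tie1 1379 ± 275. The VEGF receptor Kdr had 1070, 1902, 3377 and 2062, highest in mouse 10 and lowest in mouse 6. Of the lymphatic markers, Lyve1, which some macrophages also make, had 4207 ± 418, Pdpn 1777 ± 163 and Prox1 142 ± 65.0. Smooth muscle and pericyte markers had a median of 2515. Acta2 had 35629, 33059, 53324 and 27719 and Rgs5 16015, 15298, 20693 and 15165. Tagln had 4609.8 ± 599.7 and Myh11 697, 907, 1685 and 946. Mouse 10 was highest for these 4 genes and in 7 of the 12 members at 300 or more, mouse 6 and mouse 14 were each highest in 2, and mouse 8 in 1. Of the 4 probe sets of Rgs5, the second was highest in mouse 8 (3506) and the others in mouse 10.

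Macrophage markers had a median of 7928 over 29 members, and 13 reached 10000. Cd68, a lysosomal protein of macrophages, had 16944, 15820.5, 8705 and 15081. Adgre1, the F4/80 antigen, had 6798, 8738, 4040 and 8452. Trem2, a lipid receptor of macrophages in obese fat, had 3803, 5289, 2298 and 5164. Mouse 10 was lowest for each of them. Gpnmb (34538, 33927, 19682 and 36930.5) and Tyrobp (22262, 22775, 11064 and 26525) had the same lowest mouse. Lyz2 had 41619 ± 8576, Csf1r 34399 ± 3144, C1qa 13074 ± 1121, Mrc1 9886 ± 1231 and Cd163 4699 ± 292. The cytokines Tnf and Il6 were dim, at 223 ± 198 and 56.3 ± 32.2. The antigen-presenting genes Cd74 and H2-Aa had 24919 ± 2507 and 17445 ± 2214.

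Lymphocyte lists had medians nearer to that of all genes, 760.5. B cell markers had a median of 1002 over 11 members, with Cd79a at 1159 ± 171, Cd79b at 1085 ± 267 and Ms4a1 at 865 ± 176. T cell markers had a median of 454, with Cd3d at 787 ± 232, Cd3g at 711 ± 125 and Cd3e at 489 ± 273. The mast cell genes Cma1, Cpa3 and Kit had 2216 ± 353, 1481 ± 200.4 and 892 ± 185. Erythroid Hbb-b2 had 4421 ± 843 and Alas2 10928 ± 2841.

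Lists of tissues that the depot should not hold gave the level of genes expected to be absent. Their medians were 191 for liver, 173 for neurons and photoreceptors, 140.0 for testis and 124 for pancreas. Single members were bright, among them Cela1 (10373 ± 699.9), Odf2 (1982 ± 180.3) and Alb (3787 ± 1863). The liver list also held Cyp2e1 (6844 ± 6108), which is known from fat too and so does not mark an absent tissue. Skin epithelium markers had a median of 165, with Krt14 at 147 ± 105, Krt5 at 364 ± 184, Lor at 678 ± 184 and Krt10 at 981 ± 82.5. Of the 18 measured skin members, 13 lay below 300, and 1 that is not named here lay between 3000 and 10000. Simple and mammary epithelium markers had a median of 119, with Krt8 at 226 ± 67.5, Epcam at 372 ± 241 and Csn2 at 150.1 ± 49.6. Schwann cell markers had a median of 508, with Mbp at 2673 ± 382 and Sox10 at 508 ± 69.1. Brighter Schwann and nerve members, not named here, were 1 between 3000 and 10000 and 1 between 10000 and 30000.

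**Figure D2:**
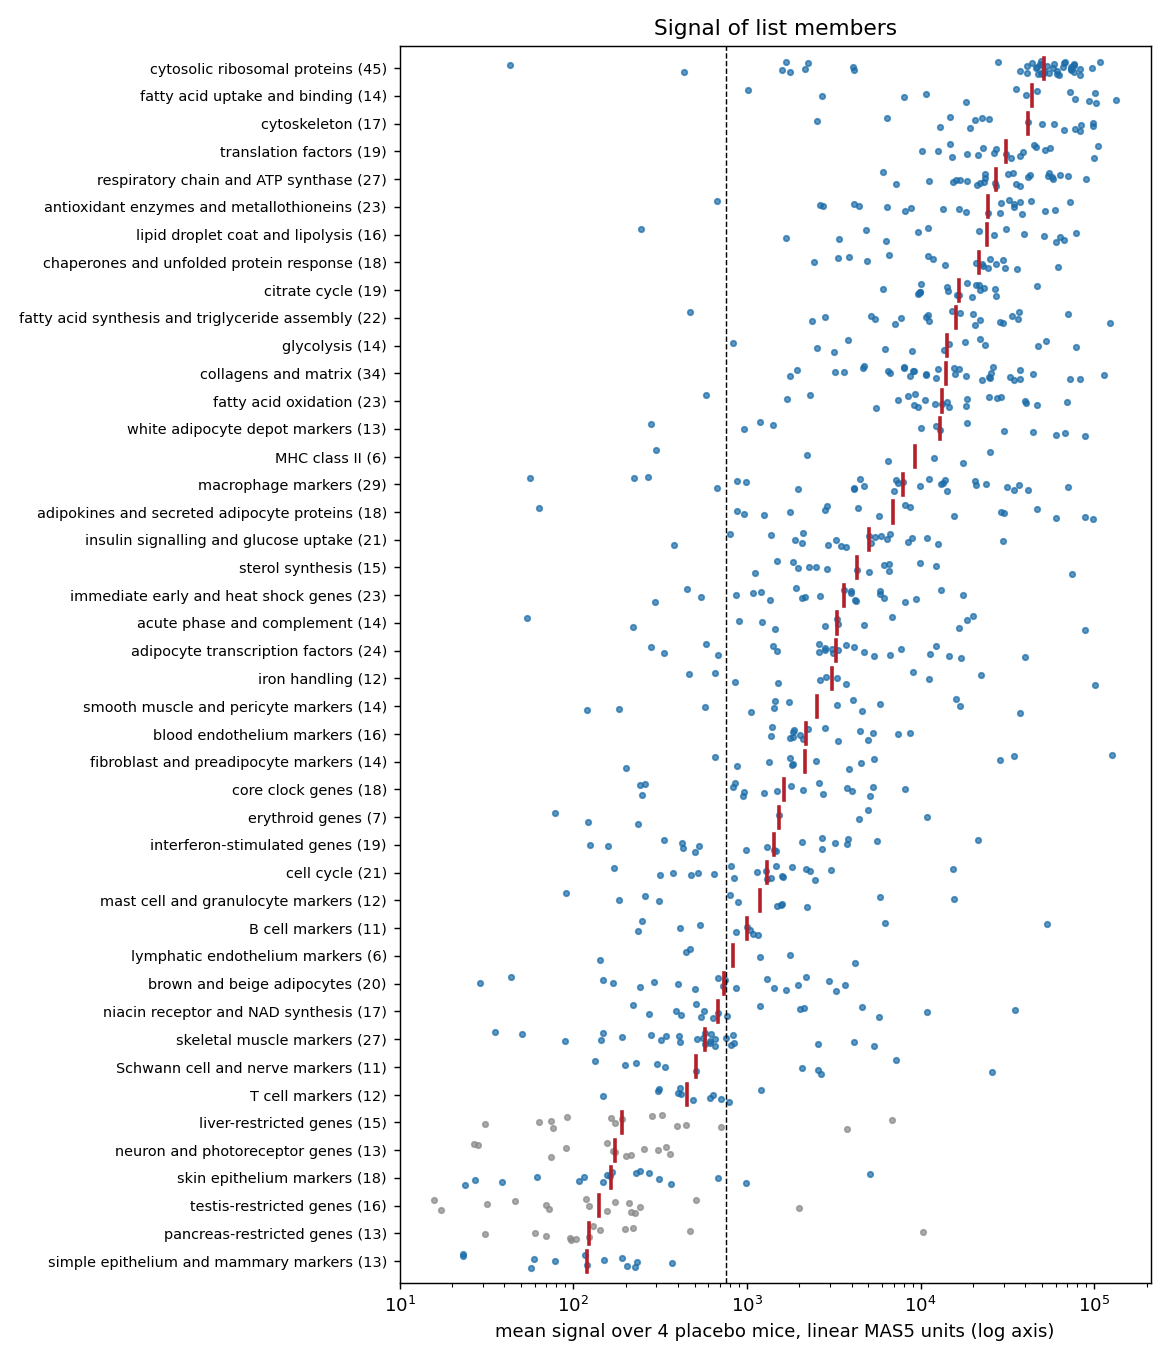
Mean signal over 4 placebo mice (linear MAS5 units, log axis) of each measured list member (points), with the list median (red bar), the median of all genes (dashed line at 760.5) and the number of members in brackets; grey points are lists of tissues that the depot should not hold. Ribosomal proteins have the highest median, 51012, and simple and mammary epithelium the lowest, 119.

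The spread between mice was narrower in brighter classes, up to a signal of 10000. The median CV was 58.3% below 300, 21.7% between 300 and 1000, 12.3% between 1000 and 3000 and 9.00% between 3000 and 10000. It was 7.60% between 10000 and 30000 and 7.76% above. Of the 8300 genes at 1000 or more, 1051 had a CV below 5%, and 249 (3%) had a highest mouse at least 2 times the lowest. A CV of 50% or more was reached by 22 genes (0.265%). Without mouse 10 this count was 12, and without mouse 14 it was 35.

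**Figure D3:**
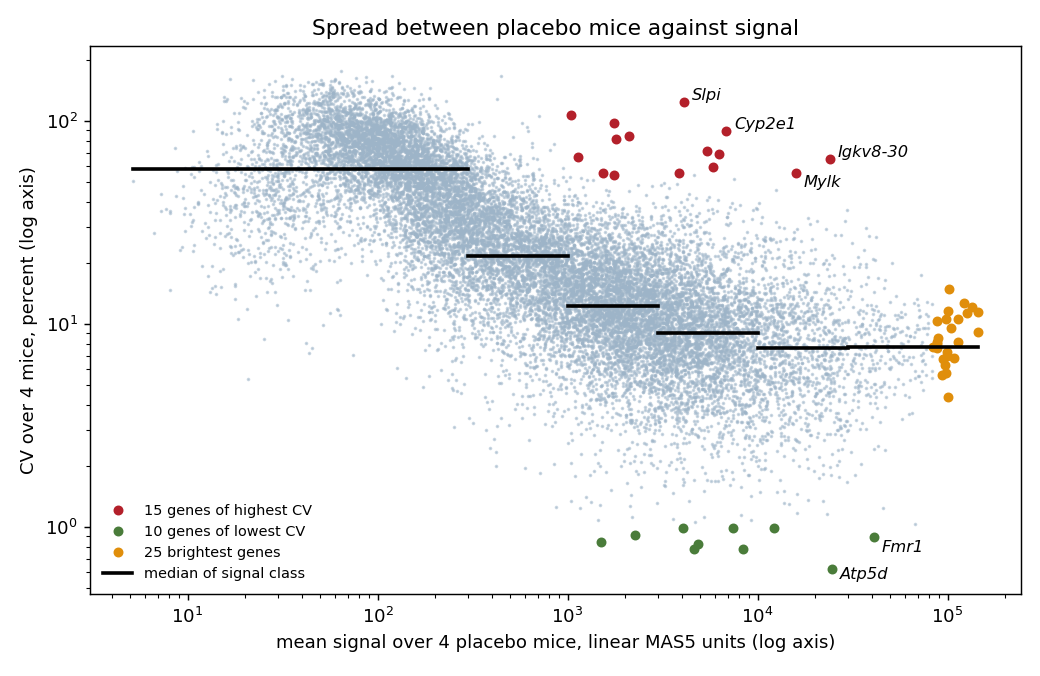
CV over 4 placebo mice (percent, log axis) against mean signal (linear MAS5 units, log axis) for 18193 genes, with the median of each signal class (bars) and the brightest, most variable and steadiest named genes in colour. The class median falls from 58.3% to 7.76%, and the brightest 25 genes lie between 4.37% and 14.8%.

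The 10 steadiest genes at 1000 or more were chosen by their CV, so their values are a description. The ATP synthase subunit Atp5d had 24585, 24879.9, 24773 and 24933 (CV 0.62%). Its second probe set had a CV of 3.27%. Fmr1, an RNA-binding protein, had 41116, 40518, 41289 and 41290.4 (CV 0.892%), while its dimmer probe sets had CVs of 12.1% and 15.9%. Ppp3ca, the catalytic subunit of calcineurin, had 4882 ± 40.3, and its second probe set had a CV of 3.93%. Isca2, Ncoa2, Zdhhc13, Atg9a, Zyg11b, Mtx1 and Cobll1 completed the 10, with means from 1502 to 12165 and CVs from 0.779% to 0.991%. The second probe set of Mtx1, with a mean of 3346, had a CV of 11.0%. Those of Ncoa2, Zyg11b and Cobll1, with means of 759, 341 and 515, had CVs of 14.5%, 45.1% and 53.2%. Isca2, Zdhhc13 and Atg9a had 1 probe set each.

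The 15 most variable genes were chosen in the same way. Slpi, a secreted inhibitor of neutrophil proteases, had 11641, 2855, 1229 and 766 (CV 124%). Mouse 6 stood highest. The bactericidal peptide gene Camp had 1319, 2007, 192 and 1009, and S100a9, an abundant calcium-binding protein of neutrophils, had 9067, 8590.5, 2176 and 3559. Both were lowest in mouse 10. Its partner S100a8 had 21433, 15726, 13583 and 11842, lowest in mouse 14, and the neutrophil granule gene Ngp, which is outside the naming rule and was chosen after its values were seen, had 2032, 2455, 569 and 1200.3.

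Immunoglobulin genes and the joining chain made up 6 of the 15. Igkv8-30, a kappa variable segment, had 46477, 22106, 13349.5 and 13996. Igkv9-120 had 4695, 637, 1728 and 1376 and Iglv1 4342, 661, 913 and 1129. In these probe sets all were highest in mouse 6, as was Jchain, which links antibody units, with 12523, 4706, 2876 and 4858. The dimmer second probe set of Igkv9-120 had 263, 603, 283 and 181, highest in mouse 8. That of Iglv1 had 702.5, 556, 474 and 701.8. The third probe set of each was highest in mouse 6, at a mean below 300. Igha, the constant region of IgA, had 2067, 504, 849.9 and 3746, highest in mouse 14, and its other probe sets had the same highest and lowest mouse. The probe set of Igk had 919, 509.8, 2621 and 99.9, whereas its second had 1017, 601, 459 and 347 in the same mice. Variable segments can be near-identical copies of each other, so their probe sets may share signal. Ighm, the constant region of IgM, gave a contrast within 1 gene. Its brightest probe set had 60628, 47685, 59515 and 46998, whereas the third had 30265, 9299.9, 7899.7 and 1058.2 and the seventh 14228, 564, 1153.5 and 746. Their CVs were 13.7%, 104% and 161%.

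Several variable genes were highest in mouse 10. Acta1, skeletal muscle actin, had 4046, 4118, 11040.4 and 2408. Cyp2e1, a cytochrome P450 of liver and fat, had 2906, 3233, 15856 and 5379. Mylk, the kinase that starts smooth muscle contraction, had 13086, 10363, 29114 and 11066, and its other probe sets were also highest in mouse 10 (17830 and 1795 there). Ppp1r3c, which targets a phosphatase to glycogen, had 2687, 2618, 7086 and 3109. The red cell anion exchanger Slc4a1 had 2799, 1245, 947 and 1146, highest in mouse 6, and its second probe set ordered the same way at the top (2367 in mouse 6). Fbxo42, a ubiquitin ligase subunit, had 2173, 2065, 342 and 2414, and its second probe set did not show the low value of mouse 10 (529, 792, 631 and 824).

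**Figure D4:**
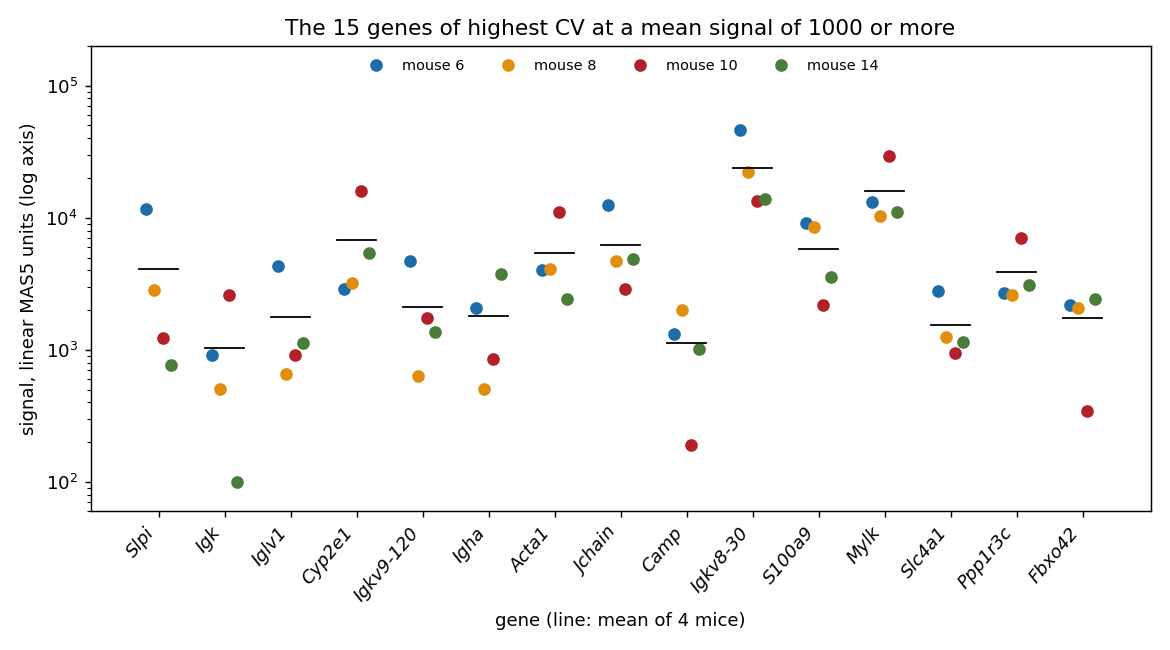
Signal (linear MAS5 units, log axis) of the 15 genes of highest CV at a mean signal of 1000 or more in each of the 4 placebo mice (coloured points), with the mean (line). Mouse 6 is highest for Slpi and for Igkv8-30, and mouse 10 is highest for Cyp2e1, Acta1, Mylk and Ppp1r3c and lowest for Fbxo42.

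To see whether the mice differed by gene group, each member's log2(signal + 26.5) was set against its mean over the 4 mice, and the median was taken over members at 300 or more. Over all 11638 such genes this median lay between -0.0035 and 0.012 in the 4 mice. Mouse 10 was the highest mouse in 3612 of them and the lowest in 3428.

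The widest list was skeletal muscle, at 1.26 in mouse 10, 0.16 in mouse 8, -0.22 in mouse 6 and -0.65 in mouse 14. Mouse 10 was highest in 17 of 20 members. Creatine kinase Ckm had 279, 648, 1373 and 310, Mylpf 573, 786, 1628 and 260.5 and Tnni2 169.6, 485, 1392 and 249. Actn3 had 264, 286, 622 and 114, and all of these were highest in mouse 10. The list was low, with a median of 574 over 27 members. With the 3 members at 1000 or more alone, the deviation of mouse 10 was 0.50. The part of these muscle transcripts in other results of mouse 10 was not tested.

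Macrophage markers went the other way in mouse 10, at -0.45, and it was lowest in 25 of 26 members. The other mice lay between 0.03 and 0.20. Cell cycle genes stood at -0.46 in mouse 10, lowest in 17 of 20, and at 0.40 in mouse 14, highest in 14. Over all genes, mouse 14 was highest in 2956 and lowest in 2664 of the 11638. The proliferation marker Mki67 had 2920.4, 2607, 1258 and 3112, the replication clamp Pcna 14291, 16871, 11919 and 18646 and Mcm5 2332, 2383, 1227 and 3242. Cdk1, the kinase that starts mitosis, had 1627, 1639.6, 973 and 2185.

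Fatty acid synthesis and triglyceride assembly genes stood at 0.18 in mouse 10, highest in 16 of 22, and at -0.17 in mouse 14, lowest in 15, where the share over all genes is 2664 of 11638. Of these 22 members, 15 reached 10000. As deposited, mouse 14 was lowest in 55.9% of all genes at 30000 or more and 26.0% of those between 10000 and 30000. The value of mouse 14 for this list was not recomputed after quantile normalization. Blood endothelium markers stood at 0.26 in mouse 10, highest in 10 of 16. Adipocyte transcription factors stood at 0.17 in that mouse, highest in 12 of 23. Smooth muscle and pericyte markers stood at 0.17 and brown and beige genes at -0.25 there, with the counts given above. Ribosomal proteins stood at -0.13, lowest in 31 of 44. Of the liver list, 6 members reached 300, and mouse 10 was highest in 5 of them. Over these 6 the list stood at 1.23 in mouse 10, near the 1.26 of skeletal muscle. It stood at -0.60, -0.64 and -0.14 in mice 6, 8 and 14. Transthyretin (Ttr) had 24.7, 60.4, 1552 and 145 and Apoa2 235, 413, 1833 and 358, and albumin (Alb) 2798, 3069, 6572 and 2710.1. All 4 probe sets of Ttr were highest in mouse 10.

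**Figure D5:**
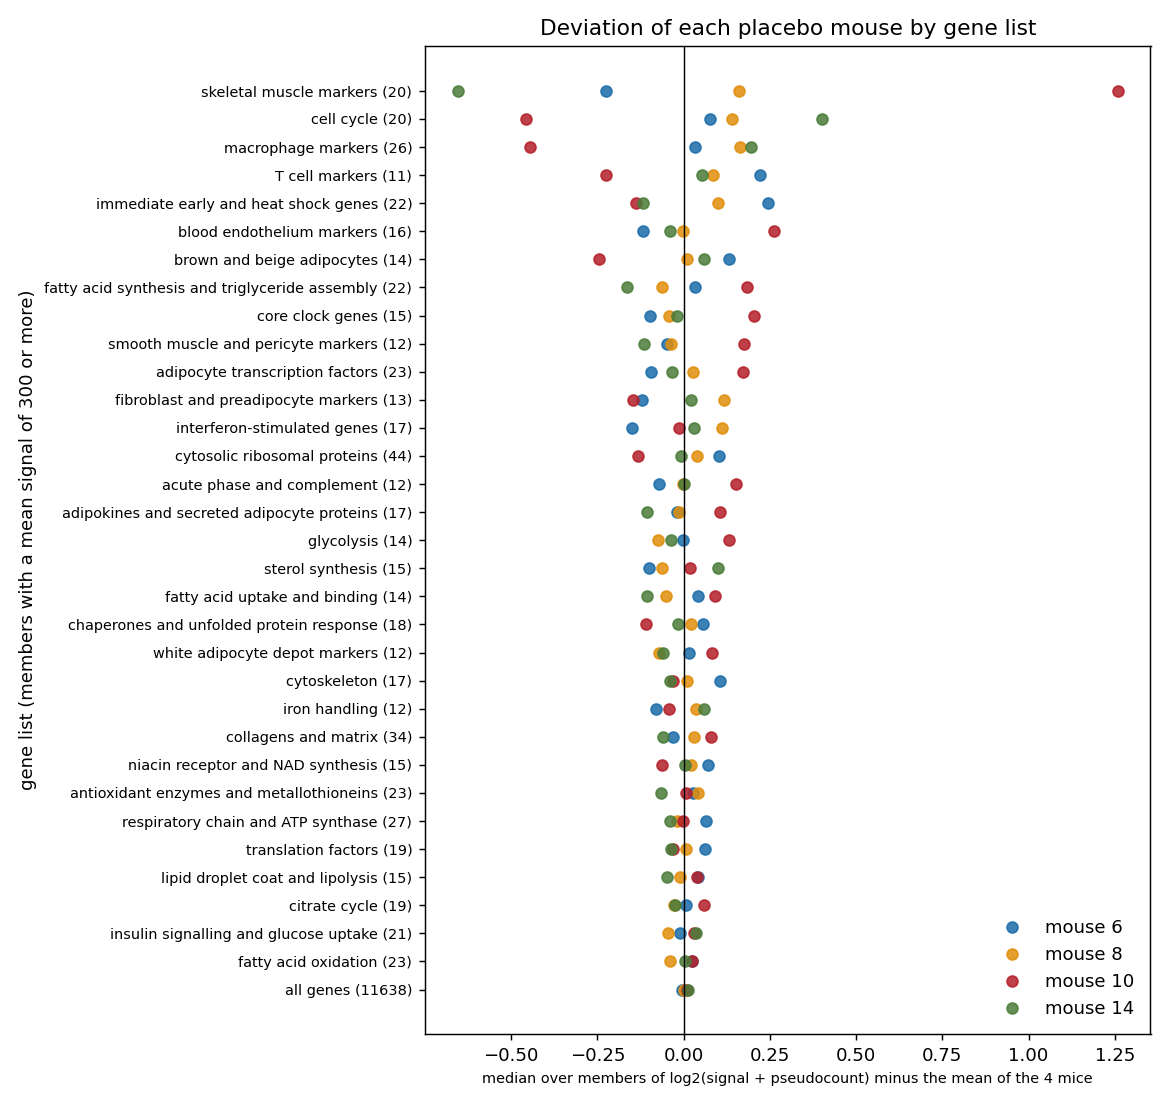
Median over list members of log2(signal + 26.5) minus the mean of the 4 placebo mice, for each mouse (coloured points) and each list with at least 10 members at a mean signal of 300 or more. Mouse 10 stands at 1.26 for skeletal muscle and at -0.45 for macrophage markers, while over all genes the 4 mice lie between -0.0035 and 0.012.

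Mouse 10 also stood apart in counts over genes at 1000 or more. Pairs without mouse 10 had 18 to 45 genes at least 2-fold apart, and pairs with it 103 to 131. Its Gapdh 3' to 5' ratio, 0.985, lay within the range of the other mice.

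A gene's rank rested on the probe set that stood for it. Of the genes, 9010 had 2 or more single-gene probe sets, and the median ratio of the brightest to the second was 2.33. The ratio was 10 or more in 1227 of these (13.6%). Such a ratio compares different probes and describes the array. Among the brightest 100 genes, the second probe set lay farthest below the first for Tpt1, Anxa1, Rps4x, Mgst1 and Cav2, whose brightest probe sets had means of 104616, 71139.6, 65715, 72614 and 72489.6. Their second probe sets had means of 39.1, 29.2, 41.4, 163 and 397. All but that of Cav2 lay below 191, the median of the liver list, so no ratio or order is given for them. With the mean of all probe sets, 71 of the brightest 100 genes were kept.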

How the data were processed

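Subcutaneous fat RNA of 4 placebo mice was read on 1 array each. The deposited values are 1 linear signal intensity per probe set and array, made by the authors with MAS5 per the submitters' processing notes; no source used here gives the version, scanner or scaling software. MAS5 in general sets probes against mismatch partners, which leaves dim signals noisy. Each array's 2% trimmed mean (both ends) equalled 1500.01, so no scaling was added. Control probe sets were left out. The platform annotation named 1 gene for 34945 of 45101 probe sets, and 34741 of these had an Entrez identifier in RefSeq.

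Genes were ranked by the mean of their brightest probe set. Of 876 listed genes in 44 lists, 755 were measured. The text names the 25 brightest genes and the 15 of highest and 10 of lowest CV at 1000 or more. It also names the 5 widest probe set ratios among the brightest 100. From the lists it names some of the brightest members and defining markers. The brightest members of the Schwann cell and skin epithelium lists are not named. Other list members, such as Fasn, Pck1, Klf15, Pdk4 and Irs2, fall outside this rule and were chosen after their values were seen. Members and lists were chosen with earlier results of these data known. With 1 group no test was made. The pseudocount of 26.5 is the 10th percentile of the signals. Protein length was not analysed. The scripts (Python 3.11.15, pandas 2.3.3) were tested on simulated data of known spread. Alternatives were the probe set that stands for a gene, the median over mice, quantile normalization, the pseudocount, the signal limit and leaving out each mouse.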

Additional observations from a re-analysis of the deposited data

Results flagged for a closer look

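Of the 202 genes given with values, 18 (8.91%) had 1 mouse whose gap to the nearest other mouse took up more of the range over the 4 mice than Dixon's critical value at the 95% level. Chance alone marks about 1 group in 20, and several of these genes were named for their spread, so the share is no measure of how often it occurs. Over the 8300 genes at 1000 or more, 515 (6.20%) were past this value, 141 of them with mouse 10 highest and 114 with mouse 10 lowest.

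In mouse 10 the signal was apart and high for Gpam (14597), Nnmt (43143), Rgs5 (20693), Mylk (29114) and Ppp1r3c (7086). It was also apart and high there for the liver list members Alb (6572), Ttr (1552) and Apoa2 (1833). Ucp1 (1408) and Fbxo42 (342) were apart and low in mouse 10. Mouse 6 was apart and high for Iglv1 (4342), Slc4a1 (2799) and Krt5 (640.4). The second probe set of Iglv1 had 702.5 in mouse 6 and 701.8 in mouse 14. Mouse 8 was apart and high for Fitm1 (613) and low for Krt8 (124). Mouse 14 was apart and high for Nr1d2 (9139) and low for Col3a1 (72620.3) and Mt2 (23039). Col3a1 is among the brightest 100 genes, of which 70 were lowest in mouse 14 as deposited and 29 after quantile normalization. Whether Col3a1 stays apart after quantile normalization was not tested. The cause was not tested for any of the genes flagged here.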

How the results depend on the processing

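The number of genes at 10000 or more was 882 with the mean of all probe sets of a gene, against 1370, and the share of summed signal in the brightest 100 genes was 14.3% against 12.8%. The same setting gave a median CV below 300 of 50.9% against 58.3%. When each mouse was left out in turn, the median CV of genes at 10000 or more ran from 5.88% (without mouse 10) to 8.02%, and that of genes below 300 from 54.6% to 56.9%, where fewer mice enter each CV. The number of genes with a CV of 50% or more ran from 12 (without mouse 10) to 35 (without mouse 14), against 22. With the mean of all probe sets 71 of the brightest 100 genes were kept, and without the probe sets whose names end in _x_at or _s_at 77 were. On both log2 scales 12 of the 15 most variable genes were kept. With the 3 members at 1000 or more alone, the skeletal muscle deviation of mouse 10 was 0.50 against 1.26. None of the 10 list deviations recomputed changed sign with a limit of 1000, a pseudocount of 100 or quantile normalization. All 16 blood endothelium members already reach 1000, so for that list the limit of 1000 could change nothing. No paired analysis was possible because only 1 group is described and no test was made. Signals below 300 lie near those of genes of absent tissues, which limits what they show.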

Other observations

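The list of immediate early and heat shock genes, which respond to stimulation or stress, stood at 0.24 in mouse 6 on the scale of list deviations. Mouse 6 was highest in 12 of 22 members, against 2672 of 11638 over all genes. The list stood at -0.14 in mouse 10 and -0.12 in mouse 14. Of its immediate early members, Fos had 11219, 10098, 4246 and 6955 and Egr1 9219, 6430.3, 5942 and 3059.9. Junb had 2332, 1230.1, 654 and 1244, highest in mouse 6 and lowest in mouse 10. Core clock genes, with a median signal of 1642, stood at 0.20 in mouse 10. The clock output gene Dbp had 3213, 3097, 4295 and 4523 and Arntl, a driver of the clock, 831, 889, 1133 and 943, and Nr1d2, a nuclear receptor of the clock, was highest in mouse 14 (9139).

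Sterol synthesis genes had a median of 4320.0, led by Hmgcs1 at 74311 ± 4919.9, while Sqle had 2257, 2582, 2868 and 3832. Chaperones had a median of 21784, with Hspa5 at 35894 ± 4164. Antioxidant enzymes and metallothioneins had a median of 24421, with Gpx4 at 59131 ± 3934. The metal-binding Mt1 had 49540, 46024, 44625 and 32809.6 and Mt2 35895, 35227, 35266 and 23039, both lowest in mouse 14. The transferrin receptor Tfrc, which brings iron into cells, had 3391, 3219.9, 2847 and 5387, highest in mouse 14, and the iron hormone gene Hamp was dim at 466 ± 80.7.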
